A study of Homo sapiens with 6 samples.

Results

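The G1 cyclins and their kinases were followed as a set of 10 genes: the D-type cyclin genes CCND1, CCND2 and CCND3, the E-type cyclin genes CCNE1 and CCNE2, the kinase genes CDK2, CDK4 and CDK6, and 2 regulators, CDC25A and FBXW7. They were taken by gene symbol from probe sets that name 1 gene only, and each of the 10 had 1 such probe set, out of 18417 genes measured. The RNA came from A375, an established human melanoma cell line that carries the activating V600E mutation in the BRAF kinase in both groups. One group of 3 dishes received 10 µM vemurafenib (PLX4032), an inhibitor of mutant BRAF, for 24 h, and the other 3 received vehicle (0.1% DMSO) for the same time. Per the design text, each replicate of a group was grown from its own cell stock and handled on its own day. All of them are 1 cell line in culture, given 1 dose for 1 time.

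Cells leave G1, the growth phase before DNA synthesis, when cyclin-dependent kinases phosphorylate the retinoblastoma protein and release the E2F transcription factors that it holds. D-type cyclins activate CDK4 and CDK6 in response to growth signals, and E-type cyclins then activate CDK2. In melanoma cells with mutant BRAF, signalling through the ERK kinases is known to keep cyclin D1 high.

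**Figure D1:**
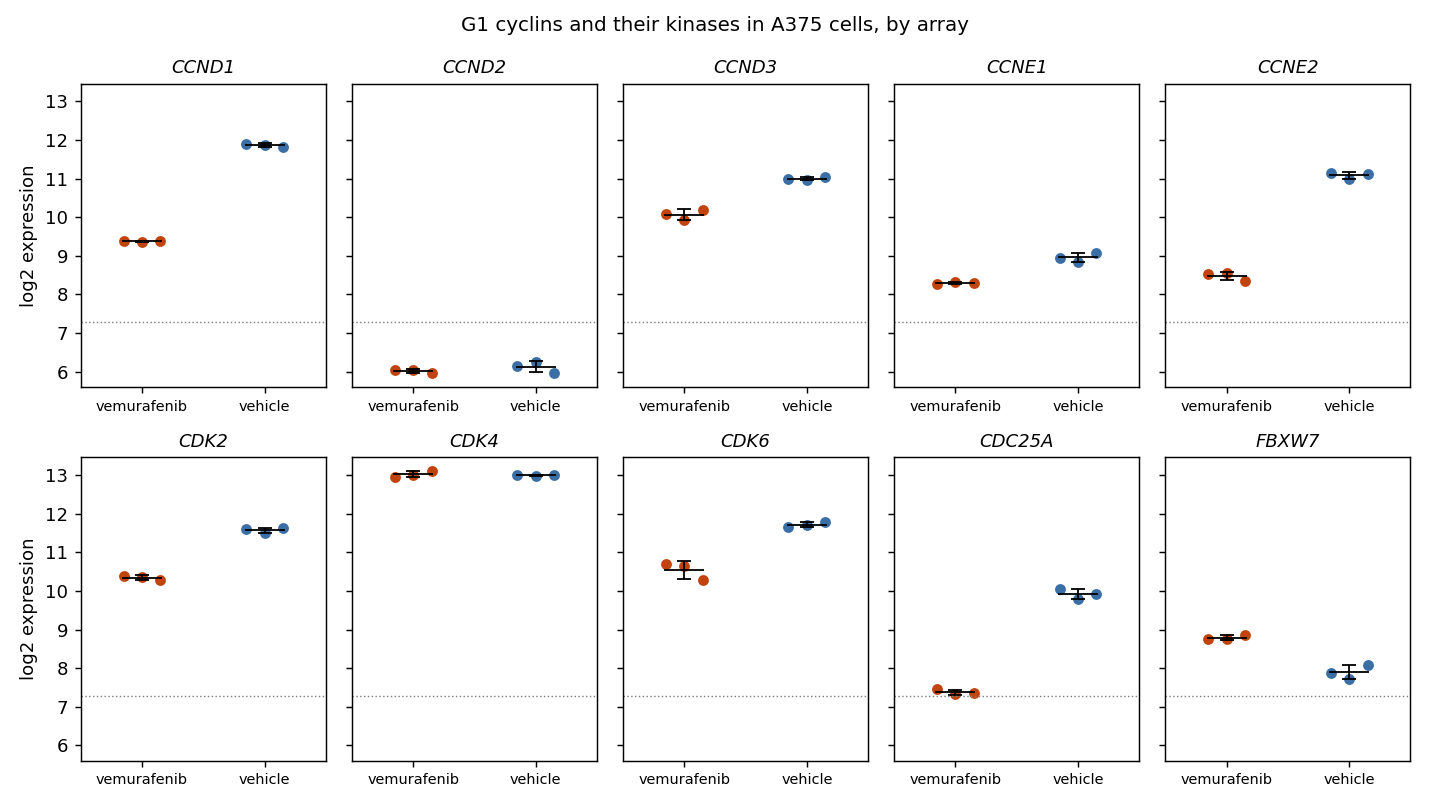
Log2 expression of each gene on each of the 3 vemurafenib arrays (left, orange) and 3 vehicle arrays (right, blue), with the group mean and SD in black. The dotted line at 7.28 is the 95th percentile of 361 olfactory receptor genes, a dim reference level. The groups lie apart for 8 of the 10 genes, and those of CCND2 and CDK4 overlap.

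With vemurafenib, 7 of the 10 genes fell and 1 rose. CCNE2, CDC25A and CCND1 were 6.08-fold, 5.83-fold and 5.61-fold lower, CDK2 and CDK6 2.33-fold and 2.26-fold lower, CCND3 1.90-fold and CCNE1 1.58-fold lower. FBXW7, whose product marks cyclin E for destruction, was 1.86-fold higher, while CDK4 stood at 13.02 ± 0.08 with vemurafenib and 12.99 ± 0.02 with vehicle (log2 level, SD, n = 3 each). These calls used limma at an adjusted p threshold of 0.05, under which 45.5% of all genes passed. By direction, 22.2% of all genes passed as lower and 23.2% as higher, a split that became 30.6% lower and 20.0% higher when each array was centred on its median over the 18417 genes. Those medians ran from 8.37 to 8.40 with vemurafenib and from 8.31 to 8.35 with vehicle, so centring moved every log2 change down by 0.06.

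The largest of these falls stood near the lower end of the changes of all genes. Of the 10 genes, 5 passed as lower by at least 2-fold, against 2.62% of all genes, and 3 passed as lower by at least 4-fold, against 0.266%. The 10 genes were chosen with earlier results of these data known, so these shares are no test of the set. Ordered from the largest fall, CCNE2 stood at place 20, CDC25A at place 23 and CCND1 at place 29 of 18417. The arrays of the groups did not overlap for 8 of the 10 genes, against 55.4% of all genes. The median change of the 10 genes was -1.05 on the log2 scale, and that of all genes was -0.05. In RNA from whole dishes, fewer cells in cycle and less of a transcript per cell cannot be told apart.

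The genome sequence upstream of these genes is shown for CDC25A, because it fell most among the members whose promoter could be matched, and for CDK4, because its groups overlapped. RefSeq promoters on GRCh38.p14 were matched by symbol for 6 of the 10 genes, giving 12 promoters for CCND3, CCNE1, CDK4, CDK6, CDC25A and FBXW7. CCND1, CCND2, CCNE2 and CDK2 were not matched. Each sequence holds the 250 bases before the annotated start, on the strand of the gene: chr3:48188418-48188667, minus strand, for CDC25A, and chr12:57752311-57752560, minus strand, for CDK4. Capitals mark E2F words in CDC25A and E-box words in CDK4.
CDC25A: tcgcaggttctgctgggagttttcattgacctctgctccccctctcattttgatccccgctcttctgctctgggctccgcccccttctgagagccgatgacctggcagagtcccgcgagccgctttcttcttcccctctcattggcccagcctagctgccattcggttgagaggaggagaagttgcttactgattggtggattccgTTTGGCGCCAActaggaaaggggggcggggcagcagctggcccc
CDK4: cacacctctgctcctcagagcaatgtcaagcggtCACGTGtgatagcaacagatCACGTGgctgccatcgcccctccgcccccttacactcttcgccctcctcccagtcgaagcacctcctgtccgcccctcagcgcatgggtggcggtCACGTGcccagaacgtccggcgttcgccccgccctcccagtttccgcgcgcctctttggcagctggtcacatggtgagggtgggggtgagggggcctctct

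Both strands were searched for the E2F words TTTCCCGC, TTTCGCGC, TTTGCCGC and TTTGGCGC, for the E-box CACGTG, to which MYC and related factors bind, and for the AP-1 words TGACTCA and TGAGTCA. The CDC25A promoter held an E2F word from 44 to 37 bases before the start. The 7-letter form of the word, without its first T, was found there and again on the other strand from 40 to 34 bases before the start, overlapping it. Of 35116 promoters of this length, 2.79% held an 8-letter E2F word and 10.9% a 7-letter one. No promoter of the other 5 matched genes held either form. The CDK4 promoter held 3 E-boxes, which began 216, 196 and 101 bases before the start, and 6.34% of all promoters held at least 1. The AP-1 words, found in 4.20% of all promoters, were in none of the 12. The search also covered the GC box GGGCGG, found in 9 of the 12 promoters and in 42.6% of all promoters, the CRE core TGACG, found in 2 of the 12 (CDK6 and FBXW7) and in 21.2% of all, and TTTGAA, found in 1 of the 12 (FBXW7) and in 13.3% of all.

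Among the D-type cyclins, CCND1 fell most. CCND1, the gene of cyclin D1 (probe set 7942123), read 9.39, 9.35 and 9.38 on the vemurafenib arrays, against 11.90, 11.88 and 11.81 on the vehicle arrays (log2 levels). All 3 vemurafenib arrays lay at least 2.41 log2 units below the lowest vehicle array, and the arrays of each group differed by less than 0.1. The log2 change was -2.49 (SE 0.07, 95% interval -2.64 to -2.34), with a limma adjusted p of 9.07e-10. CCND3, the gene of cyclin D3 (probe set 8126371), read 10.08, 9.92 and 10.20 with vemurafenib, against 10.98, 10.96 and 11.04 with vehicle. Its groups also lay apart, with more spread among the vemurafenib arrays than among the vehicle arrays. The log2 change was -0.93 (SE 0.08, 95% interval -1.11 to -0.74), with a limma adjusted p of 3.66e-06.

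CCND2, the gene of cyclin D2 (probe set 7953200), was dim in both groups. It read 6.04, 6.05 and 5.96 with vemurafenib, against 6.16, 6.25 and 5.97 with vehicle. All 6 values lay below 7.28, the 95th percentile of the olfactory receptor genes, whose expression is largely limited to the nose, so it was not shown to be above background. The groups overlapped, and the 95% interval of its log2 change ran from -0.29 to 0.08 (limma adjusted p 0.321).

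The E-type cyclins both fell, by unequal amounts. CCNE2, the gene of cyclin E2 (probe set 8151871), read 8.53, 8.54 and 8.35 with vemurafenib, against 11.13, 10.98 and 11.13 with vehicle. The lowest vehicle array was 2.43 log2 units above the highest vemurafenib array. Its log2 change of -2.60 (SE 0.08, 95% interval -2.78 to -2.42, limma adjusted p 1.74e-09) was the largest of the 10 genes. CCNE1, the gene of cyclin E1 (probe set 8027402), read 8.27, 8.32 and 8.31 with vemurafenib, against 8.95, 8.85 and 9.07 with vehicle. The groups lay 0.53 apart at their nearest arrays. Its log2 change was -0.66 (SE 0.08, 95% interval -0.83 to -0.49), with a limma adjusted p of 2.97e-05.

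Of the 3 kinase genes, 2 fell and CDK4 did not pass the test. CDK2, the partner of the E-type cyclins (probe set 7956076), read 10.38, 10.37 and 10.28 with vemurafenib, against 11.60, 11.49 and 11.62 with vehicle. The groups lay apart by 1.11 log2 units, and the change was -1.22 (SE 0.07, 95% interval -1.38 to -1.06, limma adjusted p 1.55e-07). CDK6, a partner of the D-type cyclins (probe set 8140955), read 10.69, 10.65 and 10.28 with vemurafenib, against 11.64, 11.71 and 11.77 with vehicle. Vemurafenib replicate 3 was the lowest, and the SD of 0.23 among the vemurafenib arrays was the widest of any of the 10 genes in either group. The log2 change was -1.17 (SE 0.10, 95% interval -1.40 to -0.94, limma adjusted p 3.48e-06), and it was -1.04 without that array.

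CDK4, the other partner of the D-type cyclins (probe set 7964522), read 12.94, 13.00 and 13.10 with vemurafenib, against 13.00, 12.96 and 13.00 with vehicle. The groups overlapped, and the log2 change was 0.03 (SE 0.07, limma adjusted p 0.776). Its 95% interval, from -0.13 to 0.18, spans 1.09-fold lower to 1.14-fold higher. The sign of this change turned to -0.034 when arrays were centred on their medians, to -0.016 with array weights and to -0.014 without vemurafenib replicate 3.

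The 2 regulators moved in opposite directions. CDC25A, the phosphatase that removes inhibitory phosphates from CDK2 (probe set 8086880), read 7.45, 7.32 and 7.36 with vemurafenib, against 10.06, 9.79 and 9.92 with vehicle. Its groups were 2.34 log2 units apart, and the vemurafenib values lay just above the dim reference of 7.28, so the fold is a ratio of array values that background limits. The log2 change was -2.54 (SE 0.08, 95% interval -2.73 to -2.36, limma adjusted p 2.49e-09). FBXW7, the substrate-recognition part of a ubiquitin ligase that also acts on MYC and JUN (probe set 8103206), read 8.76, 8.74 and 8.87 with vemurafenib, against 7.89, 7.72 and 8.08 with vehicle. All vemurafenib arrays were above all vehicle arrays. Its log2 change was 0.90 (SE 0.09, 95% interval 0.69 to 1.10, limma adjusted p 1.24e-05). Ordered from the largest rise, FBXW7 stood at place 715 of 18417. Of all genes, 8.71% passed as higher with a rise of at least 1.5-fold.

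**Figure D2:**
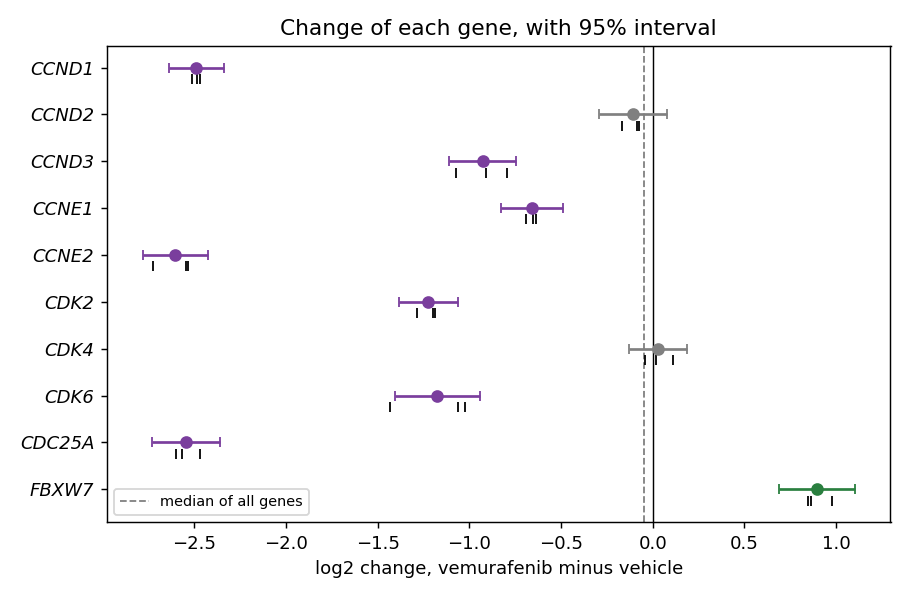
Log2 change of each gene, vemurafenib minus vehicle, with its 95% interval from limma (purple for lower, green for higher, grey for not called). Black ticks give each vemurafenib array minus the vehicle mean, and the dashed line is the median of all genes at -0.05. CCND1, CCNE2 and CDC25A lie between -2.60 and -2.49, and CCND2 and CDK4 have intervals that include 0.

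Whether 2 members changed unequally was asked for 6 pairs, from the difference between their log2 values within each array. With 3 arrays against 3, the exact permutation test (2-sided) cannot give a p below 0.1, which is 0.12 when adjusted over the 6 pairs. The difference CCND1 minus CCND3 averaged -0.69 ± 0.13 with vemurafenib and 0.87 ± 0.09 with vehicle (SD, n = 3 each, exact p 0.1). CCND1 thus fell by 1.56 log2 units more than CCND3 (95% interval -1.81 to -1.31). CCNE2 minus CCNE1 averaged 0.18 ± 0.12 with vemurafenib and 2.12 ± 0.06 with vehicle (SD, n = 3 each, exact p 0.1), an excess fall of CCNE2 of -1.94 (95% interval -2.16 to -1.73). Among the kinases, CDK2 minus CDK4 changed by -1.25 (95% interval -1.48 to -1.03) and CDK4 minus CDK6 by 1.20 (95% interval 0.71 to 1.70), each with an exact p of 0.1. CCND1 minus CCND2 was taken against CCND2 values not shown to be above background, so it gives little beyond the fall of CCND1 itself.

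In the other 4 of these pairs all 3 vemurafenib arrays lay on one side of all 3 vehicle arrays. The remaining pair was CCND1 and CCNE2, whose difference was 0.90 ± 0.11 with vemurafenib and 0.78 ± 0.11 with vehicle (SD, n = 3 each). Its arrays overlapped, and the change of the difference was 0.11 (95% interval -0.14 to 0.37, exact p 0.4). It was 0.051 without vemurafenib replicate 3, 0.062 without vehicle replicate 3 and 0.174 without vehicle replicate 2. The interval includes 0, which does not show that both genes changed alike.

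**Figure D3:**
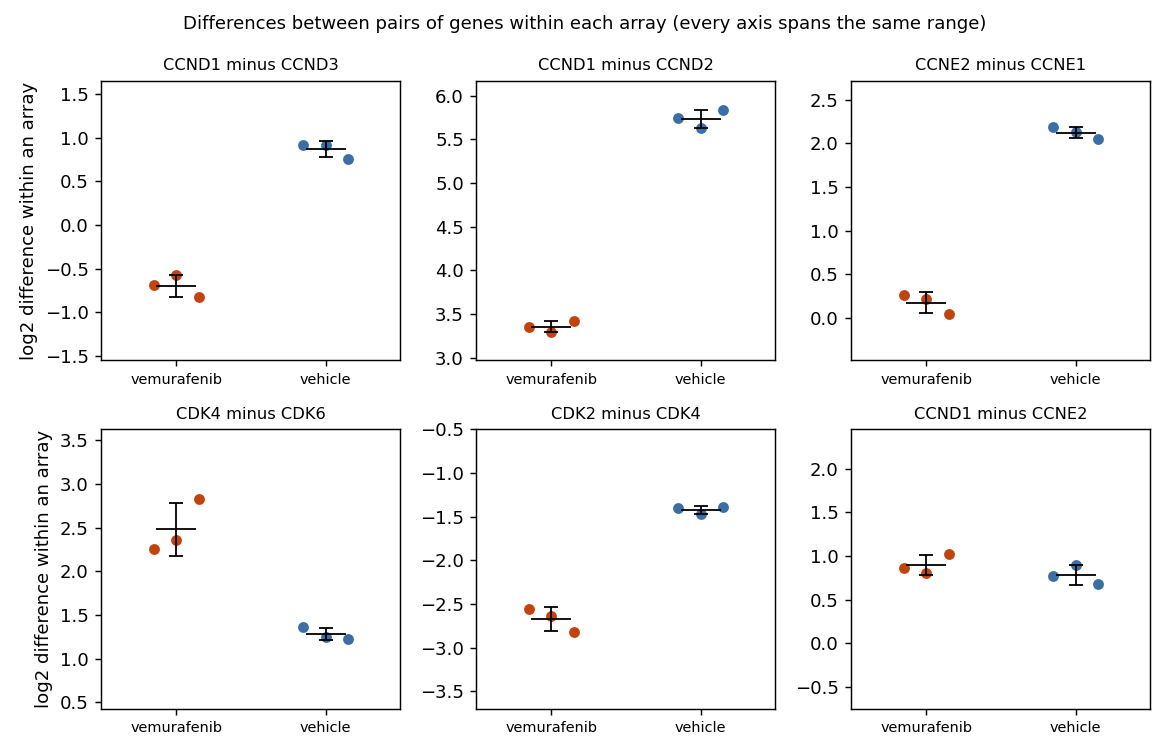
Log2 difference between 2 genes within each array, for the 3 vemurafenib arrays (left, orange) and the 3 vehicle arrays (right, blue), with means and SD in black. Every axis spans the same number of log2 units. The groups overlap for CCND1 minus CCNE2 and lie apart for the other pairs, among which the values with CCND2 rest on a dim probe set.

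Genes outside the set whose 6 values ran nearest to those of CCND1 were TGFA, SLCO4A1 and SLC20A1, by the root mean square difference after the vehicle mean of each gene was subtracted. That distance was 0.09 for TGFA, a ligand of the epidermal growth factor receptor, and 0.10 for both SLCO4A1, an organic anion transporter, and SLC20A1, a phosphate transporter. For CCNE2 the nearest genes over the 6 arrays were SLCO4A1 at 0.07, the exonuclease gene EXO1 at 0.08 and DDIAS at 0.09. Their log2 changes were -2.57 for SLCO4A1, -2.60 for EXO1 and -2.61 for DDIAS, close to the -2.60 of CCNE2 by the way they were chosen.

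The rest of the G1 control machinery was described through 6 lists, by the counts of the same limma fit. The share of genes called in either direction was 76.9% for the retinoblastoma and E2F list. For the other 5 lists it was between 46.7% and 55.6%, near the 45.5% of all genes. The total counts of those 5 thus say little about the lists. By direction, 22.2% of all genes passed as lower and 23.2% as higher. The enzymes and cofactors acting on these kinases had 6 of 11 lower and 0 higher, and the other cyclins 7 of 18 lower and 3 higher. Fallers among the other cyclins ran from 5 without vemurafenib replicate 1 to 9 after centring, where 30.6% of all genes passed as lower. The CDK inhibitors had 1 of 6 lower, the turnover factors 4 of 15 and the other kinases 3 of 15. Directions within lists were not tested. Of 6 measured CDK inhibitor genes, 2 rose and 1 fell, with a median change of -0.002 against -0.05 for all genes. CDKN1A, which encodes p21, was higher by 0.50 on the log2 scale (SE 0.07) and CDKN1B, which encodes p27, by 0.35 (SE 0.08), while CDKN2D, which encodes an inhibitor of CDK4 and CDK6, changed by -0.31 (SE 0.08). The changes of CDKN1C, CDKN2A and CDKN2B were 0.06, -0.07 and -0.17 and did not pass, and CDKN2B lay below the dim reference in both groups. Without vemurafenib replicate 3, CDKN2B passed as lower, which made 2 fallers.

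Of 13 genes of the retinoblastoma family and the E2F and DP factors, 9 fell and 1 rose, with a median change of -0.56. The largest falls were those of the repressors E2F7 (-1.79, SE 0.07) and E2F8 (-1.68, SE 0.09) and the activator E2F1 (-1.60, SE 0.11), followed by RBL1, which encodes p107 (-1.22, SE 0.09). RBL2, which encodes p130, a member of the family known from resting cells, was the single riser (0.61, SE 0.09). RB1, the retinoblastoma gene, stood at 11.76 ± 0.06 with vemurafenib and 11.85 ± 0.08 with vehicle (SD, n = 3 each, limma adjusted p 0.381). E2F5 and TFDP2 did not pass either, with changes of -0.03 and 0.10.

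Among 11 genes of enzymes and cofactors that switch cyclin-dependent kinases on or off, 6 fell and 0 rose, with a median change of -0.26. They included both kinases that place inhibitory phosphates, PKMYT1 (-1.82, SE 0.10) and WEE1 (-1.18, SE 0.10), and CDC25C (-1.003, SE 0.12), a phosphatase that removes them at entry into mitosis. CKS2 and CKS1B, small cofactors of these kinases, changed by -1.001 and -0.86, and HSP90AB1, a chaperone that helps to fold CDK4, by -0.26. CDC25B, a relative of CDC25A, stood at 10.83 ± 0.06 with vemurafenib and 10.89 ± 0.02 with vehicle (SD, n = 3 each, limma adjusted p 0.499). The 3 genes of the CDK-activating kinase did not pass: CDK7 at -0.03, CCNH at 0.09 and MNAT1 at -0.19. MNAT1 (limma adjusted p 0.0572) passed in 6 of 17 alternatives, and CDK7 and CCNH in 0. CDC37, a chaperone partner that brings CDK4 to HSP90, stood at 11.57 ± 0.07 with vemurafenib and 11.74 ± 0.05 with vehicle (SD, n = 3 each, limma adjusted p 0.0794), and passed in 3 of 17 alternatives.

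Of 15 genes of ubiquitin ligases and other turnover factors of G1 cyclins, 4 rose and 4 fell, with a median change of -0.05. USP2, a deubiquitinase that stabilises cyclin D1, was higher by 1.42 (SE 0.08), the scaffold gene CUL4B by 0.52 (SE 0.08), FBXO4 by 0.41 (SE 0.09) and AMBRA1, a ligase receptor for D-type cyclins, by 0.19 (SE 0.07). SKP2, the F-box protein that targets p27, changed by -0.75 (SE 0.07), and the scaffold genes CUL1, CUL4A and CUL3 by -0.29, -0.21 and -0.20. The count of 8 calls became 5 (3 higher, 2 lower) without vemurafenib replicate 1, without vemurafenib replicate 2, without vehicle replicate 1 and without vehicle replicate 3. CUL3, CUL4A and AMBRA1 were the calls lost in those fits, and over all 17 alternatives their limma adjusted p values reached 0.164, 0.156 and 0.159.

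Of 18 other cyclin genes, 7 fell and 3 rose, with a median change of -0.15. The fallers were led by cyclins of S phase and mitosis: CCNA2 (-1.33, SE 0.08), CCNF (-1.26, SE 0.13), CCNB1 (-1.05, SE 0.08) and CCNB2 (-0.68, SE 0.09). Among the smaller falls, CCNC (-0.25) and CCNYL1 (-0.28) were not called in 4 and 7 of 17 alternatives. The groups of CCNYL1 overlapped. CCNL2, a cyclin linked to splicing, was higher by 0.74 (SE 0.08), CCNG2 by 0.38 and CCNG1 by 0.36. Of 15 other cyclin-dependent kinase genes, 4 rose and 3 fell, with a median change of 0.05. CDK1, the kinase of mitotic entry, changed by -1.71 (SE 0.11), CDK14 by -0.73 and CDK12, which acts on RNA polymerase II, by -0.34. CDK18 was higher by 0.91 (SE 0.09), CDK19, a kinase of the Mediator complex, by 0.79, CDK5 by 0.58 and CDK20 by 0.25.

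**Figure D4:**
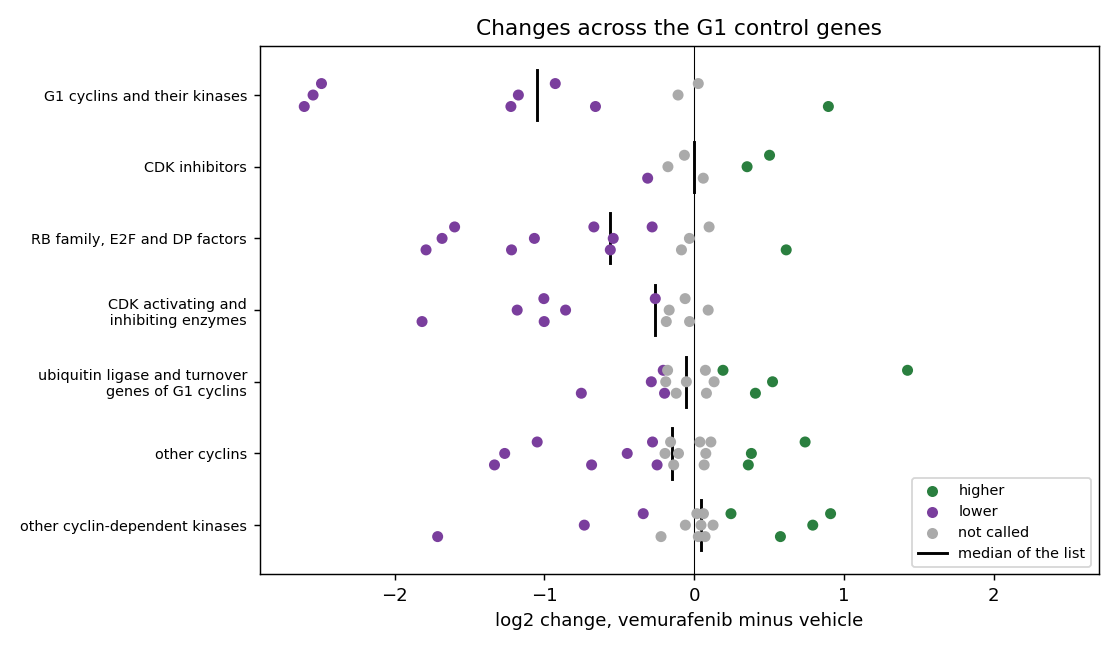
Log2 change, vemurafenib minus vehicle, of each measured gene in the set and in 6 lists of related genes, with a black bar at the median of each list (points are spread vertically for sight only). Purple and green mark genes called lower and higher by limma, and grey marks genes not called. The set of 10 has its median at -1.05, and 3 of its members lie beyond every gene of the 6 lists on the lower side.

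Arrays carry no read depth, so their number limits the precision. Array medians over all probe sets lay between 7.69 and 7.73. DUSP6, SPRY2 and ETV5, genes switched on by ERK signalling, had log2 changes of -4.21, -3.80 and -4.08. With vemurafenib, DUSP6 and ETV5 lay below the dim reference, so background limits their values. Of 7 measured pigment cell markers, MITF, SOX10 and S100B lay above the dim reference in both groups, and PMEL, MLANA, TYR and TYRP1 did not. Above it in both groups were also 2 of 5 keratinocyte markers, 1 of 5 fibroblast markers, 1 of 4 endothelial markers and 0 of 4 leukocyte markers. On the log2 scale the summed level of the fibroblast markers ran from 9.58 to 9.80 with vemurafenib and from 9.53 to 9.71 with vehicle. For the keratinocyte markers it ran from 9.77 to 10.02 with vemurafenib and from 9.74 to 9.91 with vehicle. The pigment cell sum, from 12.94 to 13.04 with vemurafenib and from 12.42 to 12.44 with vehicle, did not overlap between groups. The endothelial sum, from 8.85 to 8.94 with vemurafenib and from 9.17 to 9.28 with vehicle, did not overlap either. Nor did the leukocyte sum, from 8.05 to 8.14 with vemurafenib and from 8.21 to 8.35 with vehicle. Among all single genes, the groups did not overlap for 55.4%. The 4 leukocyte markers lay below the dim reference in both groups, so their sum is no measure of marker RNA. The part of these marker lists in the changes of the 10 genes was not tested.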

How the data were processed

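The authors deposited log2 expression levels for probe sets. RMA and Partek are named, with no version, per the submitters' processing notes. This normalization usually equalises the distributions of the arrays, which hides a change of total RNA per cell. Large folds can also be compressed in array values. Build, summarization level and batch handling: not given in the sources used here. Per the labels' protocols, 1000000 cells were seeded per 10 cm dish, and biotin labelling started from 250 ng of RNA.

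The table held 33297 probe sets on 6 arrays. By the platform annotation of 2016, 19460 named 1 gene, 1754 several and 12083 none. The probe set with the highest mean was kept for the 769 genes with several, leaving 18417 genes without a filter. Groups came from the sample titles. limma 3.58.1 (lmFit and eBayes, R 4.3.3) was fitted to all genes with group as its single term. Tests were 2-sided and p values were adjusted by Benjamini and Hochberg's method. The design text pairs dishes by letter, and the labels do not say which arrays form the pairs. The main fit therefore had no block. Intervals for pairs of genes use the pooled SD of the arrays.

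All 10 members were named, and from each list the up to 4 most changed genes past the threshold, any gene where a count was 5 or fewer, and every gene of a list of 8 or fewer. The members and lists were chosen with earlier results of these data known. The 95th percentile of olfactory receptor genes was set as a dim reference after values had been seen. CDKN2C, CCNB3, CDK3, CDK8 and DCT are not analysed here. The limma script was tested on simulated data. Alternatives were a replicate block (fixed or random, statmod 1.5.0), leaving out each array in turn, a stricter threshold of 0.01, weights for arrays, robust eBayes with an intensity trend, centring, a second quantile normalization, testing all probe sets singly or averaging them per gene, and dropping the dimmest 25% or 50% of genes. Figures were drawn with Python 3.11.15 and matplotlib 3.10.9.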

Additional observations from a re-analysis of the deposited data

How the results depend on the processing

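The count of members past the threshold was 8 (7 lower, 1 higher) in the main result and in 16 of 17 alternatives, and 7 without the dimmest 50% of genes, where FBXW7 and CCND2 were not tested. No alternative that tested them ended the call of CCND1, CCND3, CCNE1, CCNE2, CDK2, CDK6, CDC25A or FBXW7, and none gave a call to CCND2 or CDK4. The highest limma adjusted p over these alternatives was 0.000297 for CCNE1 and lower for the other called members. As each member has 1 probe set, averaging probe sets or testing them singly could not move its change. Those alternatives thus say little about the calls of members. The change of CDK4, 0.03 in the main result, was -0.034 after centring and -0.016 with array weights, ran from -0.014 (without vemurafenib replicate 3) to 0.064 when single arrays were left out, and was not called in any of these. With the replicate block, 8 members and 7606 genes passed, against 8371 genes in the main result, and the pairing by number changed no call of a member. Deviations from the group means correlated at 0.14, -0.18 and -0.25 between arrays numbered 1, 2 and 3, and not every array correlated best with its own number. Vemurafenib replicate 2 correlated best with vehicle replicate 3 (0.22), and vemurafenib replicate 3 with vehicle replicate 2 (0.28). This crossed match was not fitted as a block, because no label gives it. The numbers were thus not taken as pairs, and the block by number does not test the lettered pairing of the design text. Of the lists, the turnover factors of G1 cyclins went from 8 calls to 5 with the replicate block, with the random replicate block and at a threshold of 0.01, and ran from 5 to 8 when single arrays were left out. The total counts of the other 5 lists stayed within 1.5 times the main count in all alternatives. Their counts of fallers moved more in some fits. The CDK inhibitors had 2 fallers without vemurafenib replicate 3, against 1. The other cyclins had 5 fallers, against 7, at a threshold of 0.01 and without vemurafenib replicate 1, vehicle replicate 1 or vehicle replicate 3. They had 9 after centring and with array weights. Each member has 1 probe set, so averaging probe sets left the pair differences as they were. Leaving out single arrays moved them by less than the pooled SD, although CCND1 minus CCNE2 ran from 0.051 to 0.174 around 0.11. With the replicate block by number, the 95% interval of CDK4 minus CDK6 widened to 0.31 to 2.09. That of CDK2 minus CDK4 widened to -1.64 to -0.86, and that of CCND1 minus CCNE2 to -0.44 to 0.67. The intervals of CCND1 minus CCND3, CCND1 minus CCND2 and CCNE2 minus CCNE1 narrowed. The number of arrays and the dim levels of CCND2 and of CDC25A with vemurafenib limit what these values can show.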

Other observations

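Among the 88 members and list genes, vemurafenib replicate 3 held the lowest of the 3 vemurafenib values for 46 genes and the highest for 26. Among the 37 of them called lower, it held the lowest value for 22 and the highest for 7. The same tally was not made over all genes, so these counts have no background share beside them. Single genes named here were picked after their values were seen. CDK1 read 9.17, 9.04 and 8.69 on vemurafenib replicates 1, 2 and 3, and CCNF read 9.17, 8.83 and 8.54. E2F1 ran the other way, at 8.23, 8.47 and 8.72 on the same arrays. PKMYT1, CKS1B, CKS2, E2F7, CDKN2D and CCND3, a member of the set, were also highest on replicate 3.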
